A study of Mus musculus with 91 samples.

Results

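Transcripts that mark microglia and vascular endothelial cells were followed in ribosome pull-downs that were directed at neurons of the mouse nucleus accumbens. The genes were chosen by identifier: 10 genes were named, 6 of microglia (Cx3cr1, Csf1r, C1qa, C1qb, C1qc, P2ry12) and 4 of endothelium (Cldn5, Flt1, Pecam1, Slc2a1). Of these, 8 were among the 14355 genes of the count table. C1qa and C1qb were not among its identifiers and were not analysed here, which left 4 microglia genes (Cx3cr1, ENSMUSG00000052336; Csf1r, ENSMUSG00000024621; C1qc, ENSMUSG00000036896; P2ry12, ENSMUSG00000036353) and 4 endothelial genes (Cldn5, ENSMUSG00000041378; Flt1, ENSMUSG00000029648; Pecam1, ENSMUSG00000020717; Slc2a1, ENSMUSG00000028645).

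In this kind of pull-down a Cre driver line switches on Rpl22, a ribosomal protein, with a hemagglutinin tag, and an antibody to the tag recovers the ribosomes together with the mRNA they carry. Microglia are the resident macrophages of the brain, which survey the tissue and take up debris and synapses. Endothelial cells line the vessels and, in the brain, seal the blood-brain barrier with tight junctions and move glucose into the tissue. Neither cell type is the intended source of RNA here.

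The D1 group was made from mice carrying Drd1-Cre, driven from the D1 dopamine receptor gene, and the D2 group from mice carrying A2a-Cre, driven from the adenosine A2a receptor gene, both crossed to mice with the Cre-inducible tagged Rpl22 that all libraries share. Mice were over 10 weeks old, lived under 12 h of light and 12 h of darkness, and were taken at ZT2, 6, 10, 14, 18 and 22 (ZT counts hours from lights on); accumbens punches of 2 mice were pooled for each library. The D1 group had 45 libraries (22 male, 23 female) and the D2 group had 46 (23 male, 23 female), in 24 combinations of cell type, sex and time. Each library title also carries a letter from A to E, whose meaning is not given in the labels. Comparisons of D1 with D2 that use the letters take the same letter to match in both groups. Whether it does was not tested. D1 and D2 libraries came from different Cre lines, so cell type and line cannot be told apart. In such bulk samples, fewer cells of a type and less RNA per cell cannot be told apart either. The identifiers in the table are not paired with names, so the labelled cell types could not be checked against their defining neuronal markers, and the other genes of both lists could not be scored.

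Total counts per library were between 6872165 and 24665262. Levels are read counts scaled to a common library total (CPM), computed with totals scaled by edgeR's TMM factors, and no gene of the table averaged under 1.27 CPM over the 91 libraries. CPM values are not divided by gene length, so they are compared between libraries and not between genes. A total of 3 D1 male libraries stood apart: the libraries at ZT10 letter B, ZT22 letter B and ZT18 letter D had 789, 722 and 205 genes without a count, against at most 3 genes in each of the other 88 libraries. Values without them are given beside the cell type difference, the D1 rhythm and sex tests, the letter tests and the correlations. Whole-tissue libraries were not analysed here, so the values do not say how far these transcripts were depleted by the pull-down.

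The positions given here come from RefSeq on GRCm38.p6, and none is given for Csf1r. Cldn5 lies on chr16:18776847-18778262, Flt1 on chr5:147561604-147726438, Pecam1 on chr11:106654213-106715281 and Slc2a1 on chr4:119108745-119137330. Among the microglia genes, Cx3cr1 lies on chr9:120048683-120068296, P2ry12 on chr3:59216271-59262985 and C1qc on chr4:136889801-136892936, where C1qc sits between C1qa and C1qb. RefSeq promoter windows, 250 bases before to 50 bases after a start site, were in the table used here for 7 of the 10 named genes. Windows are shown for 3 endothelial genes that were far lower in D1 libraries and, for contrast, for P2ry12, which did not pass that test. They are written 5′ to 3′ on the strand of the gene, and capitals mark matches on either strand to the GC box motif GGGCGG, the TATA box motif TATAAA, the ETS core motif GGAAGT or the E-box motif CACGTG.
Cldn5 (chr16:18776597-18776896, plus strand): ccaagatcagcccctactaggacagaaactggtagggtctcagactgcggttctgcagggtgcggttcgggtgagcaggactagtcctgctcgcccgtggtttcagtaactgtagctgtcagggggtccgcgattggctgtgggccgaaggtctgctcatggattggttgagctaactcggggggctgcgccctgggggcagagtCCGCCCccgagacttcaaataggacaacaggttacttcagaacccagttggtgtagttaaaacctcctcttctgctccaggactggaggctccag
Flt1 (chr5:147725962-147726261, minus strand, a window inside the annotated gene): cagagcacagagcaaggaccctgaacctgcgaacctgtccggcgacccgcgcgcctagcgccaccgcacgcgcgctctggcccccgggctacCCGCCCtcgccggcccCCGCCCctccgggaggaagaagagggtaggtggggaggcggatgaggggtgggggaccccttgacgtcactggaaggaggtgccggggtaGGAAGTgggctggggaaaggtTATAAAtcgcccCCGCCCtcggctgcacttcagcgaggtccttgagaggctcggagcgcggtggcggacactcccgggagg
Slc2a1 (chr4:119108495-119108794, plus strand): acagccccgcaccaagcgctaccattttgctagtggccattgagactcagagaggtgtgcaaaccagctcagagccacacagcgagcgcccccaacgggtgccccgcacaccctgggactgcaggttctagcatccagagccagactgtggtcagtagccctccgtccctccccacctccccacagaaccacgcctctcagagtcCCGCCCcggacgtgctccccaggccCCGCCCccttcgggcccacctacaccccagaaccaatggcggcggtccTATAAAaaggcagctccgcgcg
P2ry12 (chr3:59262936-59263235, minus strand): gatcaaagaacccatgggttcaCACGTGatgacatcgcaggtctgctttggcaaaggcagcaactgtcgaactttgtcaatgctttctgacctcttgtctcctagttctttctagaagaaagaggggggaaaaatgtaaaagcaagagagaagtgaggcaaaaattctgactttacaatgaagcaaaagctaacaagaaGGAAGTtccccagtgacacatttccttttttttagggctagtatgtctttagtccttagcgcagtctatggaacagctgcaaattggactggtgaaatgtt
The Cldn5 window held 1 GC box. The Flt1 window held 3 GC boxes, 1 TATA box and 1 ETS core, and the Slc2a1 window held 2 GC boxes and 1 TATA box. The P2ry12 window held 1 ETS core and 1 E-box. Over 32851 promoter windows of the same length, a GC box was found in 35.7%, a TATA box in 13.6%, an ETS core in 23.8% and an E-box in 7.15%. These matches describe letters in the windows and no more.

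The first comparison asked whether the D1 and D2 pull-downs held the same amount of these transcripts. All 4 endothelial genes were lower in D1 libraries, by 3.07-fold to 5.40-fold, and the D1 and D2 libraries did not overlap for any of them. Of the 4 microglia genes, 3 were lower in D1 libraries by 1.18-fold to 1.36-fold, with overlapping libraries, and P2ry12 did not pass. In edgeR's quasi-likelihood test, with p-values adjusted by Benjamini and Hochberg's method over every gene of the table, 7 of the 8 genes passed the threshold of 0.05, all lower in D1, against 19.3% of all genes in either direction and 9.86% lower in D1. The median difference of the 8 genes was -1.03 on the log2 scale (D1 minus D2), beside -0.01 over all genes.

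Cldn5, the claudin that seals the tight junctions of brain endothelium, had 0.784, 2.65 and 4.55 CPM (lowest, median and highest) in the 45 D1 libraries, against 4.61, 13.4 and 39.6 CPM in the 46 D2 libraries. The highest D1 library thus lay just under the lowest D2 library. The mean level was 2.82 ± 0.93 CPM in D1 and 15.3 ± 7.87 CPM in D2 (SD), a log2 difference of -2.43 ± 0.13 (SE, adjusted p = 6.80e-30). Among all 14355 genes, ordered by how much lower they were in D1, Cldn5 was at rank 20.

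Flt1, which encodes VEGF receptor 1, had 21.2, 36.8 and 58.4 CPM (lowest, median and highest) in D1 libraries, against 79.9, 121 and 213 CPM in D2 libraries. The log2 difference was -1.79 ± 0.08 (SE, adjusted p = 5.03e-35), or 3.45-fold lower in D1. Pecam1, an adhesion molecule at the contacts between endothelial cells, had 2.96, 5.81 and 10.3 CPM in D1 libraries, against 11.6, 19.6 and 35.6 CPM in D2 libraries. Its difference was close to that of Flt1, at -1.80 ± 0.09 (SE, adjusted p = 3.23e-32), and the groups were again separate.

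Slc2a1, the glucose transporter GLUT1 of barrier endothelium, which astrocytes also express, had 12.4, 18.1 and 25.2 CPM in D1 libraries, against 26.7, 51.7 and 104 CPM in D2 libraries. It had the smallest difference of the 4 endothelial genes, -1.62 ± 0.09 (SE, adjusted p = 9.93e-28). Pecam1, Flt1 and Slc2a1 were at ranks 57, 61 and 81 among all genes by how much lower they were in D1. In all, 188 genes (1.31%) passed with a level over 2-fold lower in D1, and 27 genes (0.188%) were lower in D1 with no overlap between the libraries, the 4 endothelial genes among both.

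The lower endothelial level in D1 was present in every combination of sex and time. The ratio of D2 to D1 group means was between 3.65 and 8.11 for Cldn5, between 2.70 and 5.21 for Flt1, between 2.32 and 4.93 for Pecam1 and between 2.27 and 3.73 for Slc2a1 over the 12 combinations. Within the libraries of each letter alone, all 4 genes passed in letters A, B, C and D, where 48.3%, 48.3%, 55.9% and 54.3% of all genes passed, so passing there does not set them apart. The size differed by letter: Cldn5 was 7.01-fold lower in D1 in letter A, 6.21-fold in B, 3.61-fold in C and 4.07-fold in D, and Slc2a1 was 4.07-fold, 3.23-fold, 2.29-fold and 2.48-fold lower in the same order.

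**Figure D1:**
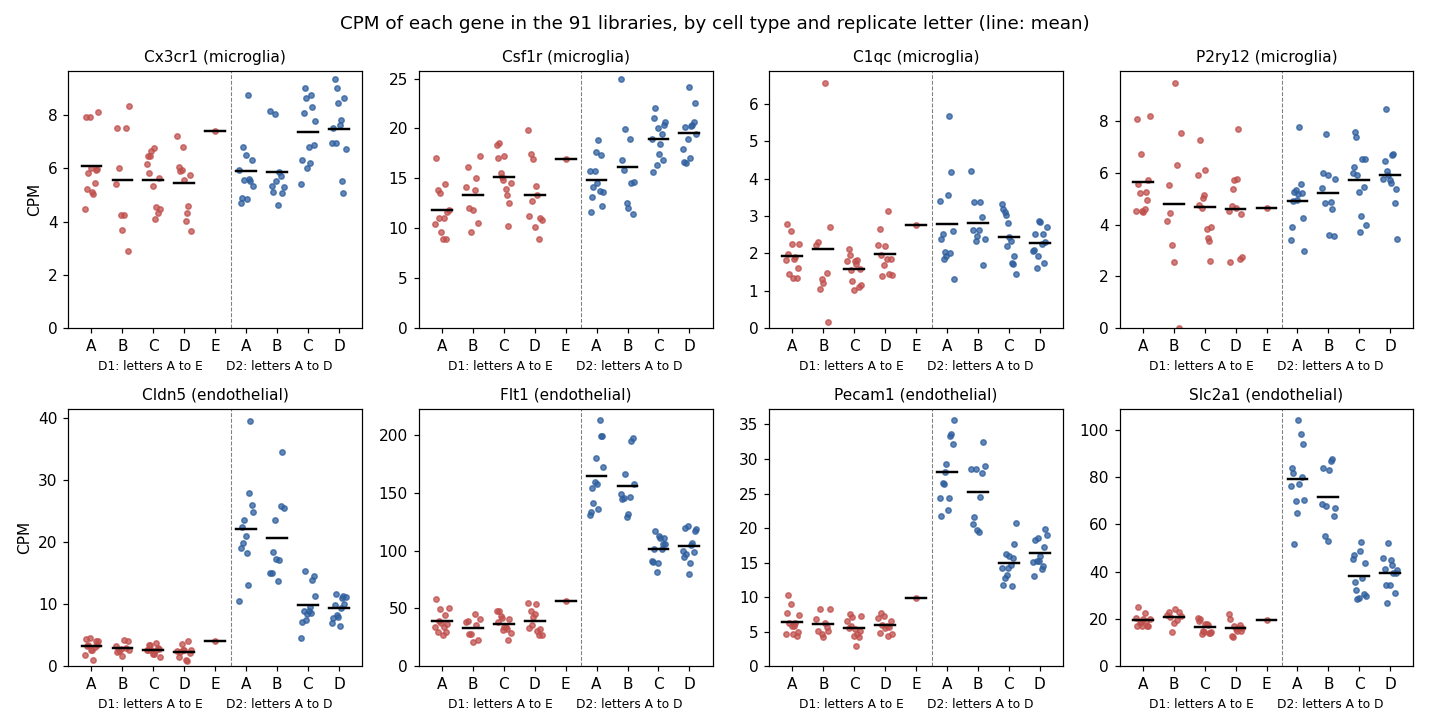
CPM of each of the 8 genes in each of the 91 libraries, by cell type (D1 left, D2 right) and replicate letter; points are libraries, spread sideways for legibility, and lines are letter means. The 4 endothelial genes in the lower row are higher in every D2 library than in any D1 library, and within D2 their means are higher in letters A and B than in C and D, while the microglia genes in the upper row overlap between D1 and D2.

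The differences of the microglia genes were smaller. Csf1r, the receptor for the growth factors that keep microglia alive, had 8.90, 13.5 and 19.9 CPM (lowest, median and highest) in D1 libraries, against 11.4, 17.4 and 25.0 CPM in D2 libraries. Its log2 difference was -0.37 ± 0.06 (SE, adjusted p = 7.31e-07), and 31 of the 45 D1 libraries lay above the lowest D2 library. C1qc, a chain of the complement protein C1q, had 0.175, 1.82 and 6.56 CPM in D1 libraries, against 1.32, 2.45 and 5.68 CPM in D2 libraries. Its log2 difference was -0.45 ± 0.10 (SE, adjusted p = 0.000393), and it rested on few reads, with 2 to 106 counts per library.

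Cx3cr1, the fractalkine receptor of microglia, had 2.88, 5.82 and 8.35 CPM in D1 libraries, against 4.61, 6.40 and 9.34 CPM in D2 libraries. Its difference of -0.24 ± 0.07 (SE, adjusted p = 0.00488) did not pass without letter C (adjusted p = 0.201) or without letter D (adjusted p = 0.235), and within letter A it was 0.04 (adjusted p = 0.781). P2ry12, the ADP receptor that microglia use to sense damage, had 0, 4.71 and 9.48 CPM in D1 libraries, against 2.97, 5.45 and 8.46 CPM in D2 libraries. Its difference was -0.13 (95% interval -0.34 to 0.07, adjusted p = 0.366), and it was 0.21 within letter A (adjusted p = 0.167) but -0.31 within letter C (adjusted p = 0.0115) and -0.37 within letter D (adjusted p = 0.0109). D2 means were above D1 means in 11 of the 12 combinations of sex and time for Cx3cr1 and Csf1r, and in 10 of 12 for C1qc and P2ry12.

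The extreme D1 values of C1qc and P2ry12 came from the libraries that stood apart. The D1 male ZT22 letter B library had 0 counts of P2ry12, which allows a level of up to 0.262 CPM (3 counts, counting error only), and 2 counts of C1qc, whereas the D1 male ZT10 letter B library had the highest D1 levels of both. Without the 3 libraries 7 of 8 passed, where 19.5% of all genes did. These were the same 7 genes as with them, and P2ry12 again did not pass (adjusted p = 0.210).

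**Figure D2:**
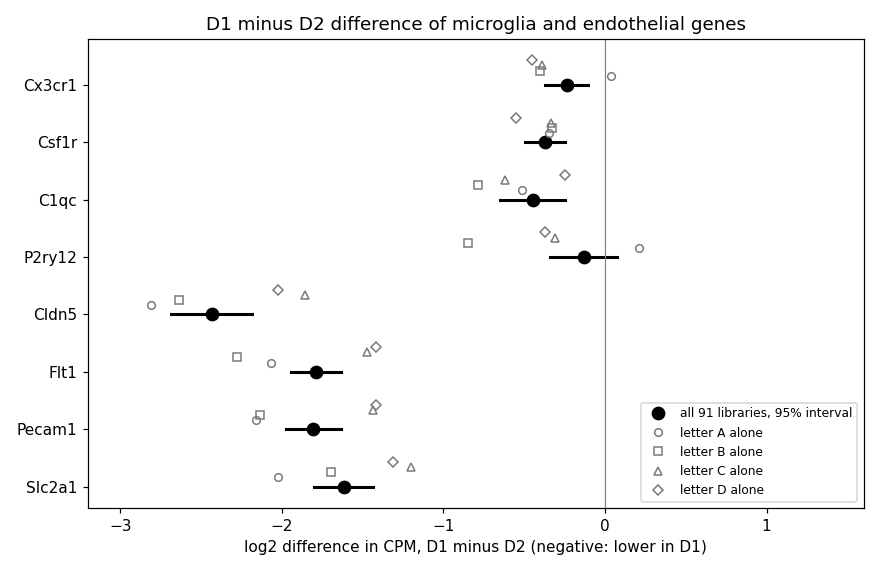
Log2 difference in CPM, D1 minus D2, for the 8 genes; black points are the fit over all 91 libraries with its 95% interval, and open symbols are fits within 1 letter. The 4 endothelial genes lie between -2.43 and -1.62 and the 4 microglia genes between -0.45 and -0.13, and within letter A the points of Cx3cr1 and P2ry12 lie above 0.

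The level of the endothelial genes also depended on the replicate letter, in D2 libraries most of all. Over letters A to D, all 4 endothelial genes and 2 of the 4 microglia genes passed in D2 libraries, where 85.6% of all genes did. In D1 libraries, Slc2a1 (adjusted p = 0.000475) and Csf1r (adjusted p = 0.0425) passed, where 58.4% of all genes did, so that neither share stands above that of the genes at large. Csf1r no longer passed in D1 without letter A (adjusted p = 0.287) or without letter C (adjusted p = 0.388). Both genes passed in D1 without the 3 libraries that stood apart (adjusted p = 0.00139 for Slc2a1 and 0.0385 for Csf1r).

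In D2 libraries, Cldn5 averaged 22.2 ± 7.42, 20.6 ± 6.64, 9.94 ± 3.29 and 9.34 ± 1.82 CPM in letters A, B, C and D (SD, n = 12, 10, 12 and 12). The highest and lowest letters differed by 1.22 on the log2 scale (adjusted p = 1.33e-17). Slc2a1 averaged 79.2 ± 14.8, 71.5 ± 12.9, 38.4 ± 8.70 and 39.4 ± 6.91 CPM in the same letters, a span of 1.05. Pecam1 averaged 28.2 ± 4.62, 25.2 ± 4.65, 14.9 ± 2.59 and 16.3 ± 2.21 CPM, a span of 0.91. Flt1 averaged 165 ± 28.1, 156 ± 23.7, 102 ± 11.1 and 104 ± 13.2 CPM, a span of 0.68, and no library of letters A and B was as low as the highest library of C or D.

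Both microglia genes that passed in D2, Cx3cr1 and Csf1r, were higher in letters C and D than in A and B. Cx3cr1 averaged 5.89 ± 1.11, 5.87 ± 1.22, 7.35 ± 1.22 and 7.47 ± 1.31 CPM in letters A, B, C and D (adjusted p = 0.000889), and Csf1r averaged 14.8 ± 2.24, 16.2 ± 4.19, 18.9 ± 2.02 and 19.5 ± 2.34 CPM (adjusted p = 0.000178). The other 2 did not pass: P2ry12 averaged 4.90, 5.21, 5.75 and 5.93 CPM in the same letters (adjusted p = 0.0630), and C1qc averaged 2.78, 2.80, 2.44 and 2.29 CPM (adjusted p = 0.366). Depth moved with the letters: mean totals of D2 libraries were 19727033, 16241681, 11336342 and 10904585 counts in A, B, C and D. With log2 depth as a covariate, the 4 endothelial genes still passed, while Cx3cr1 (adjusted p = 0.376) and Csf1r (adjusted p = 0.675) did not.

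In D1 libraries, Slc2a1 averaged 19.4 ± 2.47, 20.7 ± 2.93, 16.6 ± 2.60 and 16.4 ± 2.83 CPM in letters A, B, C and D (SD, n = 12, 9, 12 and 11). Cldn5 averaged 3.20 ± 1.07, 2.92 ± 0.82, 2.69 ± 0.62 and 2.35 ± 0.99 CPM (adjusted p = 0.326). The single library of letter E was a D1 library and was left out of the letter tests. A test of whether the letters differ between D1 and D2 libraries, added after the data were seen, was passed by the 4 endothelial genes and Cx3cr1, 5 of 8, where 64.8% of all genes passed. P2ry12 passed as well without the 3 libraries that stood apart (adjusted p = 0.0235), which made 6 of 8, and 9889 of the 14355 genes did.

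The next question was whether levels followed the time of day. A cosine with a period of 24 h was fitted for each sex, and its terms were averaged over the sexes. The amplitude of this average, in log2 units, is how far the peak stands above the mean. In D1 libraries 0 of the 8 genes passed in edgeR's test (0.495% of all genes did), and 3 had an unadjusted p under 0.05: Cldn5, Slc2a1 and C1qc. With all D1 libraries the largest amplitude of the 8 was that of C1qc, 0.39 with a peak at ZT13.2 (adjusted p = 0.220). Without the 3 libraries that stood apart the C1qc amplitude was 0.26 with a peak at ZT14.5 (adjusted p = 0.174), under that of Cldn5 (0.31, adjusted p = 0.159), and again 0 of 8 passed. In D2 libraries 0 of 8 passed (2.94% of all genes did), and 3 had an unadjusted p under 0.05: Cldn5, C1qc and P2ry12. Here and in the tests below, the share of all genes under that unadjusted p is not given. Such counts therefore cannot show whether the 8 genes stand apart. The median amplitude of the 8 genes was 0.152 in D1 and 0.190 in D2, beside 0.0932 and 0.0729 over all genes. That difference in medians was not tested.

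The letters pair the D2 libraries, and with the letter as a block 5 of the 8 genes passed in D2, against 22.3% of all genes: the 4 endothelial genes and P2ry12. With the same block 0 of 8 passed in D1 (1.13% of all genes did). The 2 largest D2 amplitudes among the 5 belonged to Cldn5 and Slc2a1, which peaked at different times of day.

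Cldn5 in D2 libraries, as a ratio to the mean of the library's letter, was 1.40 ± 0.31 at ZT2, 0.992 ± 0.157 at ZT6, 0.686 ± 0.152 at ZT10, 0.818 ± 0.136 at ZT14, 1.05 ± 0.16 at ZT18 and 1.10 ± 0.22 at ZT22 (SD, n = 7 or 8). It was thus highest early in the light phase and lowest late in it, and all 8 libraries at ZT10 lay under the mean of their letter. With the block the amplitude was 0.41 with a peak at ZT23.8 (adjusted p = 1.52e-06), against an adjusted p of 0.194 without it. It passed with the block whichever letter was left out. In D1 libraries the fitted Cldn5 peak was at ZT23.9 with an amplitude of 0.27, which did not pass (adjusted p = 0.347).

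Slc2a1 in D2 libraries had ratios of 0.808 ± 0.123 at ZT2, 0.841 ± 0.103 at ZT6, 1.14 ± 0.13 at ZT10, 1.14 ± 0.13 at ZT14, 1.00 ± 0.16 at ZT18 and 1.02 ± 0.19 at ZT22. Its low point was early in the light phase, where Cldn5 was high. With the block the amplitude was 0.24 with a peak at ZT14.3 (adjusted p = 0.000149), against 0.476 without it, and it passed whichever letter was left out. In D1 libraries the fitted peak with the block was at ZT12.9 with an amplitude of 0.17 (adjusted p = 0.0648).

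The other rhythms in D2 libraries with the block were small. Pecam1 had an amplitude of 0.17 with a peak at ZT1.3 (adjusted p = 0.00258, against 0.792 without the block) and Flt1 had 0.12 with a peak at ZT22.3 (adjusted p = 0.0196, against 0.815). Flt1 did not pass with the block once letter A (adjusted p = 0.0983) or letter B (adjusted p = 0.0893) was left out. P2ry12 had an amplitude of 0.22 with a peak at ZT18.9 (adjusted p = 0.0142, against 0.0933), which was lost without letter C (adjusted p = 0.122) or letter D (adjusted p = 0.0874). C1qc came close, with 0.26 and a peak at ZT12.8 (adjusted p = 0.0561). Cx3cr1 and Csf1r had D2 amplitudes of 0.07 and 0.01 with the block.

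Whether D1 and D2 libraries differed in rhythm was tested directly. Of the 8 genes 0 passed in edgeR's test without the block (0.0139% of all genes did), and 0 passed with it (0.529% did). Without the block 0 of the 8 had an unadjusted p under 0.05, and with it 1 had, Flt1 (unadjusted p = 0.0162). The D2 rhythms of the endothelial genes are therefore not shown to differ from D1.

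**Figure D3:**
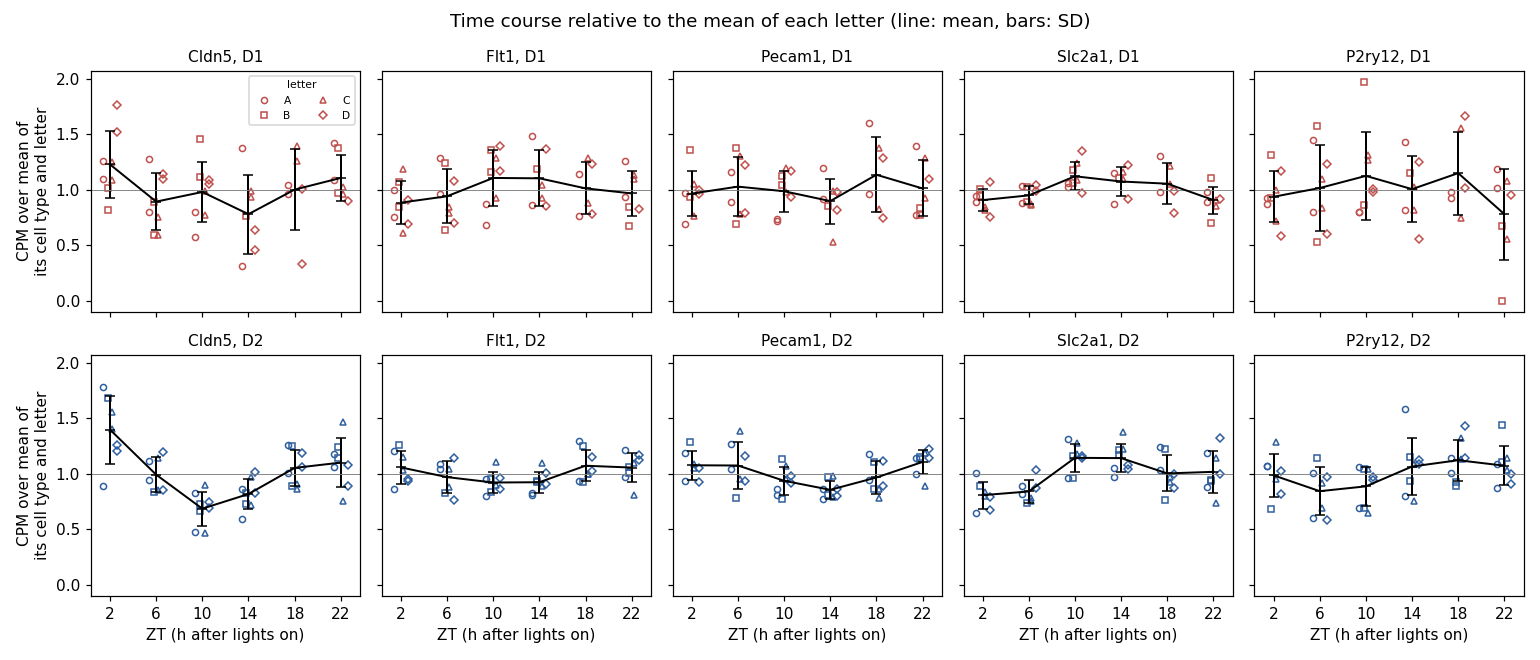
CPM of the 4 endothelial genes and P2ry12 against ZT in hours, each library divided by the mean of its cell type and letter, with D1 above and D2 below; symbols are letters A to D, offset sideways, and lines and bars are means and SD at each time. In D2, Cldn5 is highest at ZT2 (1.40) and lowest at ZT10 (0.686), and Slc2a1 is lowest at ZT2 (0.808).

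Sex was compared as male minus female. Without the block 0 of the 8 genes passed in D1 libraries (0.0418% of all genes did) and 0 passed in D2 libraries (0.216% did). In D1, 3 genes had an unadjusted p under 0.05, with negative log2 differences: Pecam1 (-0.28, unadjusted p = 0.00677), Csf1r (-0.22, unadjusted p = 0.0162) and Cx3cr1 (-0.23, unadjusted p = 0.0251). Without the 3 libraries that stood apart 0 of 8 passed, and Cx3cr1 had -0.17 (unadjusted p = 0.0737). In D2, 1 gene had an unadjusted p under 0.05, P2ry12 (-0.23, unadjusted p = 0.0107). The share of all genes under an unadjusted p of 0.05 is not given, so these counts are description only.

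With the letter as a block, the 4 endothelial genes were higher in D2 males, 4 of 8 genes, where 9.45% of all genes passed and 5.01% were higher in males. Cldn5 had 6.46, 13.7 and 39.6 CPM (lowest, median and highest) in the 23 male D2 libraries, against 4.61, 11.7 and 23.6 CPM in the 23 female D2 libraries, a log2 difference of 0.29 ± 0.07 with the block (SE, adjusted p = 0.0131). The ranges overlapped widely for each of these genes. D2 medians were slightly higher in males for Pecam1 (19.9 against 18.6 CPM) and Slc2a1 (52.7 against 51.5 CPM). For Flt1 the D2 median was lower in males (119 against 122 CPM). The differences were 0.20 ± 0.06 for Slc2a1 (adjusted p = 0.0233), 0.17 ± 0.05 for Pecam1 (adjusted p = 0.0334) and 0.16 ± 0.05 for Flt1 (adjusted p = 0.0215). These depended on the letters: of the 8 genes, 2 passed without letter A, of which Cldn5 was the endothelial one, 0 without letter B, 0 without letter C and 4 without letter D. The shares of all genes in these fits with a letter left out are not given. With the block 0 of 8 passed in D1 libraries (7.26% of all genes did).

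The sex difference itself was not shown to differ between D1 and D2. In edgeR's test 0 of the 8 genes and 0% of all genes passed, and 2 of the 8 had an unadjusted p under 0.05. These were Pecam1, whose male minus female difference was lower by 0.45 in D1 than in D2 (unadjusted p = 0.00868), and Flt1, lower by 0.36 (unadjusted p = 0.0190). With the block 0 of 8 passed, where 0.00697% of all genes did.

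The last comparison asked whether the genes vary together from library to library. Correlations were computed on log2(CPM + 0.5) within each cell type and letter, 232 relations in all, with permutation p-values adjusted over them. Both members of each relation share the library's total count, and differences between sexes and times of day were not removed. In D1 libraries the summed microglia genes averaged 24.6 CPM in males and 27.5 CPM in females, and the summed endothelial genes 61.5 and 68.0 CPM. How far sex and time enter the correlations was not tested. Levels of the 4 microglia genes, summed, and of the 4 endothelial genes, summed, were positively correlated in all 4 letters of the D1 libraries, and no letter of the D2 libraries gave a correlation past the threshold. Genes with high CPM weigh most in these sums. In D1, Flt1 averaged 37.8 CPM where the endothelial sum averaged 64.8 CPM, and Csf1r 13.5 CPM where the microglia sum averaged 26.1 CPM. In D1 the Pearson correlation of the sums was 0.961 in letter A, 0.823 in letter B, 0.802 in letter C and 0.665 in letter D (n = 12, 9, 12 and 11; exact test in letter B, permutation tests elsewhere). The adjusted p passed in letters A (0.00232) and C (0.0346), and not in B (0.0786) or D (0.156). Without the 2 libraries farthest from the median of the microglia sum, the values in letters A to D were 0.935, 0.893, 0.580 and 0.504. Without the 3 libraries that stood apart, the correlation was 0.902 in letter B (n = 7, exact test, adjusted p = 0.0868) and 0.822 in letter D (n = 10, permutation test, adjusted p = 0.0636).

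Letters A and C hold none of the 3 libraries that stood apart. In letter A the unadjusted permutation p of 1e-05 is the smallest that the permutations can give, and Spearman's rho was 0.951 (adjusted permutation p = 0.00580). In letter C rho was 0.734 (adjusted permutation p = 0.0948). In D2 libraries the correlations of the sums were -0.159, -0.096, 0.020 and 0.098 in letters A to D, and 0 of 4 passed (lowest unadjusted permutation p = 0.633). Without the 2 farthest libraries these were -0.040, -0.164, -0.216 and 0.595. Whether D1 and D2 differ in this was not tested.

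**Figure D4:**
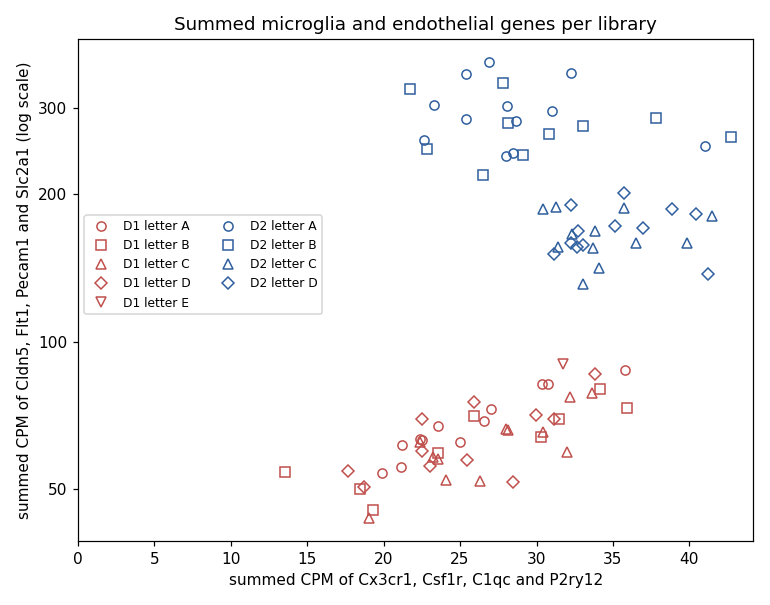
Summed CPM of the 4 endothelial genes (log axis) against summed CPM of the 4 microglia genes (linear axis) in each of the 91 libraries, D1 in red and D2 in blue, with a symbol for each letter. D1 libraries lie between 43.7 and 89.9 CPM of endothelial genes and form a rising band. D2 libraries lie between 131 and 372 CPM, with every library of letters A and B above every library of C and D.

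Pairs of single genes were also compared. Among the 64 pairs of a microglia and an endothelial gene in the 4 letters, the median correlation was 0.444 in D1 (51 positive, 5 passed by Pearson's r) and -0.053 in D2 (28 positive, 0 passed). All 5 paired Flt1 with a microglia gene, 3 in letter A and 2 in letter B, which holds 2 of the libraries that stood apart. Of these, 1 passed by Spearman's rho too, C1qc with Flt1 in letter B. Without the 3 libraries the D1 median was 0.523 (55 positive), 2 pairs passed by Pearson's r, both in letter A, and 0 passed by both measures. Pairs of microglia genes had a median of 0.591 in D1 (24 of 24 positive) and 0.373 in D2 (21 of 24 positive). The D1 values were 0.626 and 23 of 24 without the 3 libraries. Pairs of endothelial genes had a median of 0.357 in D1 (18 of 24 positive) and 0.316 in D2 (19 of 24 positive). The median of pairs of a microglia and an endothelial gene was thus above that of endothelial pairs in D1, and below it in D2. Pairs of other genes of the table were not compared in this way, so the values are not shown to be particular to these genes.

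Other genes of the table were ranked by how closely they followed each group over the 91 libraries, from log2 CPM with the means of each letter and each sex within cell type removed. This is a description with no test. The microglia genes were followed most closely by ENSMUSG00000022500 (r = 0.851) and ENSMUSG00000054737 (r = 0.844). Without the 3 libraries that stood apart these values were 0.697 and 0.678. The ranking was not repeated without those libraries for either group, so whether the same genes would come first was not tested. The endothelial genes were followed most closely by ENSMUSG00000020154 (r = 0.700) and ENSMUSG00000024140 (r = 0.694), and here the values without the 3 libraries were 0.706 and 0.691. Both of these identifiers had lower means in D1 than in D2, 33.5 against 85.4 CPM and 36.6 against 104 CPM. Each gene of a group is itself part of the mean of its group, which raises its own value. The values of group members below are therefore not comparable with those of the other identifiers. Among the endothelial genes themselves, Cldn5, Flt1 and Pecam1 followed the mean of their group at 0.741, 0.750 and 0.727, and Slc2a1 at 0.237. These values were 0.712, 0.757, 0.732 and 0.220 without the 3 libraries. Among the microglia genes the values were 0.906 for P2ry12, 0.835 for C1qc, 0.658 for Cx3cr1 and 0.640 for Csf1r. The order differed without the 3 libraries, with 0.810 for P2ry12, 0.800 for Csf1r, 0.755 for Cx3cr1 and 0.716 for C1qc.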

How the data were processed

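Ribosome-bound mRNA was sequenced in 91 libraries. The authors deposited whole-number counts per gene, filtered on log CPM per the file name (threshold not given in the sources used here). Per the submitters' processing notes, FastQC 0.11.7, HISAT2 (no version given) and HTSeq 0.10.0 were used, and GRCm38 and GRCh38 are named with no role. From these deposited counts, log2 differences, CPM and tests were computed in R 4.3.3 with edgeR 4.0.16: TMM factors and quasi-likelihood F-tests, with Benjamini-Hochberg adjustment over 14355 genes. Effects are D1 minus D2 and male minus female. Rhythm is a 24 h cosine fitted for each cell type and sex, with its terms averaged over the sexes. The fits across genes were run on simulated counts in which libraries were drawn independently. This does not show how fits without a block behave where letters pair the libraries. Alternatives used limma 3.58.1 (voom, library quality weights), DESeq2 1.42.0, RLE factors, filterByExpr, depth as a covariate, a letter block, and libraries or letters left out.

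Letters were taken to pair D2 libraries, because in all 243 same-letter pairs from different groups the deviations from group means correlated above 0.1 (lowest 0.193, median 0.722). In D1 libraries this held for 66.8% of 223 pairs (lowest -0.606, median 0.205), with the 3 libraries that stood apart included. Letters were therefore not taken to pair there, although 58.4% of all genes passed the letter test in D1. Blocked D2 values stand beside a result where they change a call. No library copied another of its group (129 pairs, lowest mean chi-square per gene 4.24). The labels do not say whether libraries share mice, so p-values measure only the spread between these pooled samples. All 8 genes present were named, with at most 2 further identifiers per group, chosen by correlation. The genes and lists were chosen with earlier results of these data known.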

Additional observations from a re-analysis of the deposited data

Results flagged for a closer look

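Within groups of 4 libraries of the same cell type, sex and time, 9 of 152 combinations of group and gene (5.92%) had a library far from the other 3 by Dixon's test at the 95% level, which chance gives in about 5% of such groups. Of these, 3 lie in the libraries that stood apart: Cx3cr1 at 2.88 CPM and C1qc at 0.175 CPM (2 counts), both the lowest of their group in D1 male ZT22 letter B, and C1qc at 6.56 CPM, the highest of its group in D1 male ZT10 letter B. In D1 libraries elsewhere, Csf1r was lowest of its group at 11.2 CPM in female ZT14 letter D, Pecam1 was lowest at 4.72 CPM in female ZT10 letter A and highest at 6.52 CPM in male ZT22 letter D. In D2 libraries, Cx3cr1 was highest of its group at 8.29 CPM in male ZT2 letter C and at 8.76 CPM in male ZT18 letter C, and C1qc was highest at 4.17 CPM in male ZT2 letter A.

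The D1 minus D2 difference depended on the letter for 5 of the 8 genes, if the same letter is taken to match in D1 and D2 libraries. The labels do not give such a match. The same test was passed by 64.8% of all genes, so this count does not set them apart. On the log2 scale, the D1 minus D2 difference spanned 1.03 between letters for Cldn5, 0.813 for Slc2a1, 0.798 for Flt1, 0.718 for Pecam1 and 0.498 for Cx3cr1 (edgeR adjusted p = 5.85e-06, 7.86e-09, 2.01e-06, 1.69e-06 and 0.0254). Cx3cr1 did not pass this test with depth as a covariate (adjusted p = 0.350), with voom (adjusted p = 0.0570) or without letter A, C or D (adjusted p = 0.461, 0.0552 and 0.0827).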

How the results depend on the processing

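Of 454 values under an alternative, for the 37 results of single genes that passed in at least 1 fit, 388 kept direction and side of the threshold, 14 no longer passed, 50 newly passed and 2 reversed: within letter A alone the D1 minus D2 difference was 0.0404 for Cx3cr1 and 0.209 for P2ry12. For the cell type difference, 7 of 8 genes passed in the fit reported and 5 to 8 under the alternatives. Rhythm in D2 depended on the fit: 0 genes without a block, 5 with the replicate block, 4 with the block and without any 1 letter, 5 with voom and 2 with depth as a covariate. Voom also gave 1 rhythmic gene in D1 (Cldn5, adjusted p = 0.0476) and 2 genes whose rhythm differed between D1 and D2 (Csf1r, adjusted p = 0.0322, and Slc2a1, adjusted p = 0.0470). The sex difference in D2 had 0 genes without the block, 4 with the replicate block, 2 with the block and without letter A, 4 with the block and without letter D, and 1 with voom. The letter difference in D1 had 1 to 2 genes when a letter was left out. The cause of these changes was not tested. Counts over all genes follow mostly as ranges. A count of the 8 genes under 1 alternative can thus mostly not be set against its share of all genes, and cannot show whether they stand apart. Over all genes, counts for the cell type difference ranged from 1767 (without letter D) to 8248 (voom), around 2770. Under the alternatives they ranged from 13 to 717 for rhythm in D1 (71 reported), from 55 to 3198 for rhythm in D2, from 0 to 2266 for the rhythm difference (2 reported), from 2 to 1042 for sex in D1, from 7 to 1496 for sex in D2 and from 1452 to 9906 for the letter difference between cell types (9305 reported). The replicate block gave 5471 for the cell type difference, and 3198 against 422 for rhythm and 1357 against 31 for sex in D2. In D1 it gave 162 against 71 and 1042 against 6, and for the rhythm difference 76 against 2. The block changed no other call of the 8 genes. DESeq2 gave 0 rhythmic genes of 8 in each cell type, set an adjusted p for 1 of the 8 genes in each sex test, and gave none for the sex difference between cell types. Depth limits C1qc most, at 2 to 106 counts per library.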
